A study of Homo sapiens with 8 samples.

Results

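RNA from heavy polysomes was compared with RNA from the light end of the same sucrose gradients in control cells of 2 human acute myeloid leukaemia lines. The comparison rests on 4 of the 8 libraries of the series: a light and a heavy pool from Molm13 and a light and a heavy pool from U937, chosen by their labels alone. The other 4 libraries come from cells labelled OE, for lentiviral overexpression of OGFOD1, and are used below only where stated. All cells grew in RPMI1640 medium with fetal bovine serum, and all were given 100 µg/ml cycloheximide, which halts elongating ribosomes, before lysis. The light pool combined free ribonucleoproteins, single ribosomes (monosomes) and pairs of ribosomes (disomes), and the heavy pool combined every fraction with at least 3 ribosomes. Molm13 is a monocytic leukaemia line with a KMT2A fusion and a FLT3 internal tandem duplication, and U937 is a promonocytic line. The genotype label of these cells is control, and their library names hold the tag Scr. What vector they carried is not given in the sources used here. Each line contributed 1 library per pool, so n = 2 lines, and p-values cover only the spread between these libraries. That spread was in effect shared by genes of like abundance. Standard errors and p-values therefore say little about how closely the 2 lines agree for a single gene.

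An mRNA that is being translated carries several ribosomes and sediments deep into a sucrose gradient, whereas untranslated RNA stays near the top. A short reading frame can hold few ribosomes at a time, so a translated mRNA with a very short frame may also sediment with monosomes and disomes. Translation of many mRNAs is set by features of the transcript: a pyrimidine tract at the 5′ end (the TOP motif, which couples ribosomal protein synthesis to mTOR), upstream reading frames, iron-responsive hairpins and selenocysteine codons.

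The libraries held 57578482 to 89373133 counts, and 31644 to 33915 genes had at least 1 count. Of 15 myeloid markers, 13 reached 1 CPM (a count scaled to its library) in all 4 libraries, among them SPI1, CEBPA, LYZ, MPO and CD33, and their summed level was 1053 to 1526 CPM. No B cell, erythroid or fibroblast marker reached 1 CPM in all 4; CD3D (T cell list) and KRT8 and KRT18 (epithelial list) did. The light library of Molm13 stood apart from the other light libraries. Mitochondrially encoded genes took 2.49% of its counts (exact 95% binomial interval 2.488% to 2.494%), against 23.3% in the U937 control light library (23.33% to 23.35%) and 19.8% and 20.5% in the light libraries labelled OE. They took 0.797% and 0.848% in the heavy libraries of Molm13 and U937. Across genes, log2 CPM of the Molm13 light library correlated more closely with the Molm13 and U937 heavy libraries (Pearson r = 0.964 and 0.962) than with the U937 light library (r = 0.932). The intervals cover counting error only. Results are therefore given for each line as well as for the joint fit. The spread of heavy minus light log2 differences over all genes was smaller in Molm13 (SD 0.870) than in U937 (SD 1.26).

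Of 22658 genes tested, 305 (1.35%) were higher and 521 (2.30%) were lower in the heavy pool, 826 in all (3.65%), in edgeR's quasi-likelihood test with the cell line as a block and a Benjamini-Hochberg adjusted p threshold of 0.05. The median log2 difference of all genes was -0.01. Of the genes called higher, 302 were higher in both lines, with a median of 1.11 in Molm13 and 2.29 in U937. All 521 genes called lower were lower in both lines, with medians of -1.51 and -2.35. The 4 libraries labelled OE, which took no part in that fit, gave a like direction: 285 of the 305 genes (93.4%) were higher in the heavy pool of both pairs labelled OE, where 37.4% of all genes tested were, and 511 of the 521 (98.1%) were lower in both, where 39.7% of all genes were. The count depends on single libraries. With all 8 libraries in the fit, 50 genes were higher and 212 lower. The fits that follow each left out 1 library of the 8 and compare with that count. In fits of the remaining libraries of all 8, 2461 genes were higher and 1568 lower without the Molm13 light library, 35 and 252 without the U937 light library, 0 and 0 without the Molm13 heavy library, and 0 and 1 without the U937 heavy library. Those last fits left 3685 and 2689 genes at an unadjusted p under 0.05. With RLE in place of TMM scaling, 37 genes were higher and 145 lower, so that 20.3% of called genes were higher, against 36.9%. The median of all genes was then -0.02. The prior degrees of freedom, which set the weight of the shared spread, were 23.1 with RLE and 11015 with TMM scaling. What part each had in the lower count was not tested. The share of called genes that were higher was 12.5% with upper-quartile scaling, which also moved the median of all genes to -0.11.

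**Figure D1:**
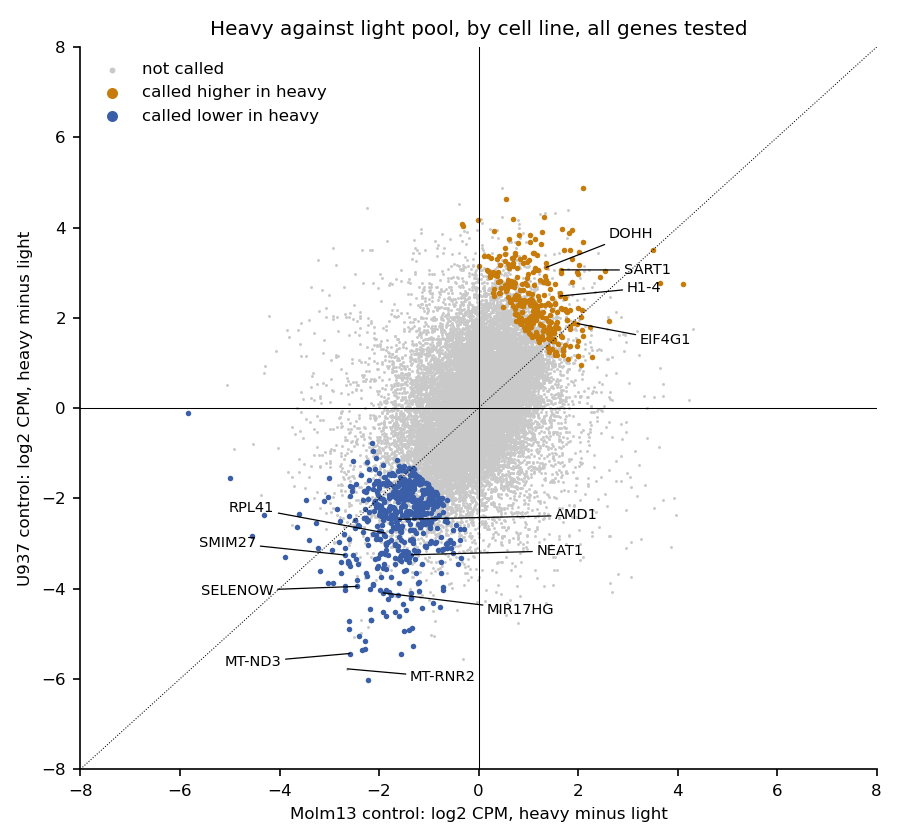
Heavy minus light difference in log2 CPM for each of the 22658 genes tested, Molm13 on the horizontal and U937 on the vertical axis; coloured points passed the test, and the dotted line marks equal differences. The 521 genes called lower sit in the lower left part of the plot, and most called genes lie farther from 0 in U937 than in Molm13.

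Power varied with abundance. Of the 7402 genes with a mean of 10 to under 100 CPM, 370 were called (5.00%), with a median standard error of 0.43 on the log2 scale. None of the 122 genes at 1000 CPM or more was called; their median standard error was 1.07, and 48 of them differed by more than 1 on the log2 scale. For the most abundant mRNAs, including those of most ribosomal proteins and elongation factors, the values in each line therefore carry the description.

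SELENOW, SMIM27 and MAP3K13 led the protein-coding genes that were lower in the heavy pool. SELENOW, which encodes a small selenoprotein (chr19:47778572-47784686, GRCh38, plus strand), was at 89.4 CPM in the light and 16.5 CPM in the heavy pool of Molm13. In U937 it was at 245 CPM in the light and 15.8 CPM in the heavy pool. Both heavy values lie well below both light values; the log2 difference was -3.20 (SE 0.61, n = 2 lines, edgeR adjusted p = 1.23e-04). SMIM27, for a small integral membrane protein (chr9:32551144-32568621, plus strand), was at 27.7 and 4.28 CPM in light and heavy Molm13. It was at 55.9 and 5.82 CPM in light and heavy U937, a log2 difference of -2.98 (SE 0.45, edgeR adjusted p = 2.13e-07). Both heavy values of SMIM27 were again below both light values. MAP3K13, a kinase of the mixed-lineage family, went from 78.0 to 24.4 CPM in Molm13 and from 238 to 28.8 CPM in U937 (log2 difference -2.36, SE 0.59, edgeR adjusted p = 0.00699). VMA21, needed to assemble the proton pump of the lysosome, went from 134 to 33.4 CPM and from 426 to 81.8 CPM (-2.19, SE 0.67, edgeR adjusted p = 0.0368). The others of the 12 largest differences were FAM200B (-2.27), MARCHF2, a membrane ubiquitin ligase (-2.25), SMIM29 (-2.23), NENF, the secreted factor neudesin (-2.20), A1BG (-2.18), BOLA3, which helps insert iron-sulphur clusters in mitochondria (-2.16), TMEM219 (-2.14) and IGLL5 (-2.09). A1BG and IGLL5 share 50.9% and 43.6% of their exon bases with other annotated genes, so their reads cannot be assigned with certainty. The coding sequences of the 12 had a median of 193 codons, and 9 had fewer than 250; the median of all protein-coding genes tested was 443.

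SART1, PFDN6 and DOHH led the protein-coding genes that were higher in the heavy pool. SART1, a component of the spliceosome's tri-snRNP (chr11:65961689-65979828, plus strand), was at 22.1 and 69.9 CPM in light and heavy Molm13. In U937 it was at 7.01 and 58.8 CPM, a joint log2 difference of 2.36 (SE 0.48, edgeR adjusted p = 4.05e-04). PFDN6, a subunit of the prefoldin chaperone, went from 64.7 to 145 CPM and from 13.5 to 142 CPM (2.28, SE 0.61, edgeR adjusted p = 0.0129). The heavy pools of the lines were thus nearly equal for PFDN6, and the light pools were far apart; it shares 34.9% of its exon bases with other genes. DOHH, the hydroxylase that completes hypusine on the translation factor eIF5A (chr19:3490822-3500940, minus strand), went from 32.2 to 82.7 CPM and from 10.3 to 89.7 CPM (2.24, SE 0.52, edgeR adjusted p = 0.00267). H1-4, a linker histone, went from 17.5 to 54.6 CPM and from 4.75 to 26.7 CPM (2.06, SE 0.44, edgeR adjusted p = 8.63e-04). The others were FRG1 (2.14), the RNA-binding protein RBM42 (2.10), TEDC1 (2.10), the kinase DAPK3 (2.07), the centrosome linker LRRC45 (2.04), HSPBP1, an exchange factor for HSP70 (2.04), the surface proteoglycan CSPG4 (1.97) and MGST2, which makes leukotriene C4 (1.97). Their median coding length was 392.5 codons, and 3 of 12 had fewer than 250. CSPG4 was the gene of these 12 that the libraries labelled OE matched least, at 0.12 in Molm13 and 1.89 in U937. The direction of all 24 genes held under each of the 14 alternatives run. These genes were picked for large called differences of one direction in both lines. Most alternatives reuse the same 4 control libraries, so the held direction adds no separate support. All 12 lower genes also passed in the fit of all 8 libraries and with DESeq2 and limma voom. Of the 12 higher genes, 7 passed in the fit of all 8 libraries and 7 with RLE scaling. Of the 12 lower genes, 8 passed with RLE scaling. Without either heavy library none of the 24 passed, and without the U937 light library 3 of the higher and 12 of the lower genes did.

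**Figure D2:**
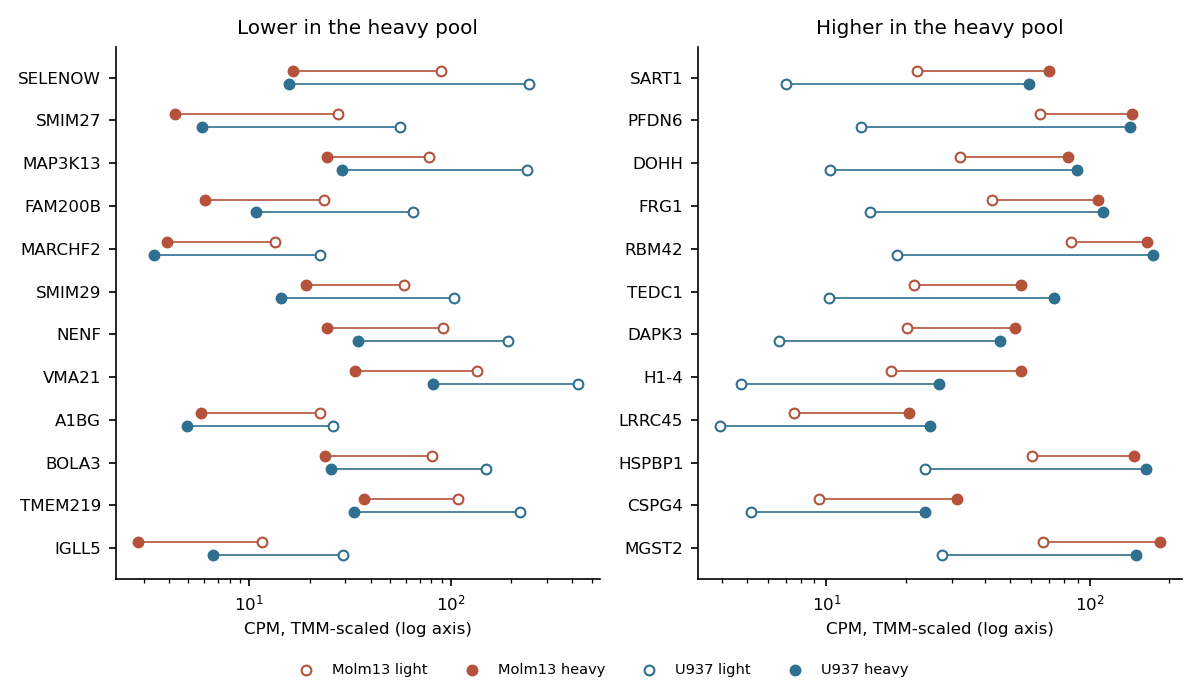
Level in each control library, as TMM-scaled CPM on a log axis, of the 12 protein-coding genes with the largest called difference in each direction; open circles are light and filled circles heavy pools, red Molm13 and blue U937. SELENOW runs from 245 to 15.8 CPM in U937, and in the right panel the U937 light library holds the lowest value of every gene.

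RNAs that do not meet cytosolic ribosomes lay on the light side. All 13 mitochondrially encoded mRNAs, which are translated inside the organelle, were lower in the heavy pool of both lines, and 2 passed the test (15.4%, against 2.30% of all genes called lower). Their median log2 difference was -2.92, made of -1.68 in Molm13 and -4.50 in U937. MT-ND3, a subunit of complex I, was at 218 CPM in light and 36.3 CPM in heavy Molm13. In U937 it was at 2624 and 60.5 CPM (-4.02, SE 1.05, edgeR adjusted p = 0.0101), and MT-ATP8, of the ATP synthase, gave -3.42 (SE 0.89, edgeR adjusted p = 0.0091). The light values of the lines differ far more than the heavy values do. MT-RNR2, the large mitochondrial ribosomal RNA, was at 6149 and 990.2 CPM in Molm13 and at 122151 and 2224 CPM in U937. Its difference of -4.21 had a standard error of 2.46 and did not pass (edgeR adjusted p = 0.374). Of 24 mitochondrial transfer and ribosomal RNAs, 12 were called lower (50%, against 2.30% of all genes) and none higher. MT-TS1 (-3.30) and MT-TG (-3.24), for serine and glycine, were among the 12. The lines were far apart for MT-TS1, at -1.32 in Molm13 and -5.27 in U937. With RLE scaling none of the 13 mRNAs passed, and without the Molm13 light library the list's median was -4.06. MTATP6P1, a nuclear copy of a mitochondrial gene on chromosome 1, gave -3.73, and reads of the mitochondrial gene could be counted there.

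Of the small nucleolar RNA host genes and of the nuclear noncoding RNAs, some were lower and none was higher. The host genes carry small nucleolar RNAs in their introns, and their spliced transcripts are mostly short-framed or noncoding. Of 21 host genes, 5 were called lower, where 2.30% of all genes were, and 20 were lower in both lines. The list's median was -1.50 (-1.06 in Molm13, -2.03 in U937). MIR17HG, which is counted in this list and carries the miR-17 to miR-92 cluster, was at 4.27 and 1.11 CPM in light and heavy Molm13. In U937 it was at 26.1 and 1.503 CPM (-3.05, SE 0.49, edgeR adjusted p = 1.29e-06). DANCR (-2.45), EPB41L4A-AS1 (-2.34), SNHG4 (-1.95) and SNHG12 (-1.50) were the others that passed. EPB41L4A-AS1, an antisense gene, shares 49.6% of its exon bases with other annotated genes, so its reads cannot be assigned with certainty. GAS5 (-1.68) and ZFAS1 (-1.69), further host genes, were lower in both lines without passing (edgeR adjusted p = 0.174 and 0.167). ZFAS1 shares 46.9% of its exon bases with other annotated genes. Of 16 nuclear and small noncoding RNAs, all had a negative difference and 4 were called lower, again beside 2.30% of all genes. NEAT1, the scaffold of paraspeckles, was at 101 and 39.8 CPM in Molm13 and at 242 and 25.4 CPM in U937 (-2.30, SE 0.62, edgeR adjusted p = 0.0136). RN7SK, which holds the elongation factor P-TEFb, gave -1.91 (edgeR adjusted p = 0.00353); in the libraries labelled OE it was 0.41 in Molm13 and -1.30 in U937. FTX (-1.58) and RPPH1 (-1.55) also passed. RN7SK and RPPH1 lie over 100% of their length, and FTX over 44.3%, within exons of other annotated genes, so their reads cannot be assigned with certainty. MALAT1, at 3162 and 1311 CPM in Molm13 and 595 and 497 CPM in U937, did not (-0.77, SE 1.02). Among all genes by annotated type, 149 of 3910 long noncoding genes were lower (3.81%) and 57 higher (1.46%), and 180 of 13176 protein-coding genes were lower (1.37%) and 155 higher (1.18%). With RLE scaling 1 of the 21 host genes and none of the 16 nuclear RNAs passed. Without the Molm13 light library the medians of these lists were -1.98 and -1.43.

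The largest called differences upward outside protein-coding genes were QKILA, a long noncoding RNA (2.84), HMGB1P5 (2.73) and HMGB1P6 (2.49), processed copies of HMGB1, and MIR3917 and MIR636 (2.59 each). HMGB1P5 was at 17.3 and 70.0 CPM in light and heavy Molm13 and at 4.00 and 44.2 CPM in U937. Reads of the parent mRNA can be counted at such copies; HMGB1 itself was at 496 and 1828 CPM and at 277 and 1583 CPM (2.20, SE 0.99, edgeR adjusted p = 0.213). The microRNA genes lie in exons of other genes over 71.0% and 100% of their length, MIR3917 and MIR636 respectively, so these values are those of the host transcripts or cannot be told apart from them.

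The mRNAs of ribosomal proteins and of other factors with a TOP motif were spread over both pools, and none of the 79 and 24 tested passed. At the annotated start, a TOP mRNA begins with C followed by a run of pyrimidines. The windows below, from RefSeq on GRCh38.p14, run from 5 bases before the start to 20 bases from it, with the pyrimidine run from the start C in capitals; they are shown to set 5 TOP mRNAs beside 2 mRNAs of the heavy side that have none. The letters searched were C at the start base followed by at least 4 bases each C or T, on the gene's own strand.
EEF1A1 (chr6:73521013-73521037, minus strand): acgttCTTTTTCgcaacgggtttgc
EEF2 (chr19:3985444-3985468, minus strand): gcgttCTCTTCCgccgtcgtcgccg
TPT1 (chr13:45341164-45341188, minus strand): tcggcCTTTTCCgcccgctcccccc
RPLP0 (chr12:120201092-120201116, minus strand): gaggcCCTTCTCTCgccaggcgtcc
RPS23 (chr5:82278335-82278359, minus strand): cttctCTCTTTCgctcaggcccgtg
PSMB3 (chr17:38752736-38752760, plus strand): gagacagcagtgagagcggttgcgc
EIF4G1 (chr3:184314601-184314625, plus strand): gagccggaaatggttgtggactacg
The motif was in 68.3% of 63 ribosomal protein windows and in 88.9% of 18 windows of the other listed TOP mRNAs, against 4.66% of 15300 protein-coding windows and 0 of 29 windows of proteasome genes. The motif did not mark the light side alone. The 5 TOP mRNAs printed had negative joint differences, but RACK1, with a run of 9 pyrimidines, gave 0.41 (0.73 in Molm13, 0.09 in U937). FAU, which also has the motif, gave 1.42. Among listed genes the median was -0.32 for 59 with the motif and -0.09 for 22 without it.

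Ribosomal protein mRNAs gave a median of -0.16 over 79 genes (0.01 in Molm13, -0.25 in U937), with 30 positive and 49 negative. Their summed level was 86817 and 83432 CPM in light and heavy Molm13 and 130380 and 97676 CPM in U937. Single members differed in opposite directions: RPS20 was at 1459.9 and 491 CPM in Molm13 and 4354 and 633 CPM in U937 (-2.18, SE 1.11), and FAU, a fusion of ubiquitin-like and ribosomal protein S30 sequences, was at 588 and 1047 CPM and at 274 and 1097 CPM (1.42, SE 0.91). Neither passed (edgeR adjusted p = 0.291 and 0.435). RPS23, the substrate of OGFOD1, was at 1310.3 and 1355 CPM in Molm13 and at 1939.6 and 1498 CPM in U937 (-0.16, SE 1.03, edgeR adjusted p = 0.962). The other TOP mRNAs lay lower, with a median of -0.79 over 24 genes (-0.21 in Molm13, -1.43 in U937). EEF1A1, which brings aminoacyl-tRNA to the ribosome, was at 3809 and 3645 CPM in Molm13 and at 10850.0 and 2395 CPM in U937 (-1.12, SE 1.42). The Molm13 pools were thus close together and the U937 pools far apart. EEF2, the translocation factor, was at 1377 and 997 CPM and at 2785 and 562 CPM (-1.39, SE 1.08). PABPC1, the poly(A)-binding protein, was at 1859 and 1065 CPM and at 6269 and 597 CPM (-2.10, SE 1.27, edgeR adjusted p = 0.396). The pairs labelled OE gave list medians of -1.89 and -2.01 for these TOP mRNAs and -0.81 and -1.37 for ribosomal proteins. Outside the lists, 511 genes with the motif had a median of -0.03 and 9778 genes without it 0.10; 6 of the former (1.17%) were lower and none higher, and 148 of the latter (1.51%) were lower and 121 (1.24%) higher. Without the U937 light library the ribosomal protein median was 0.04. Without the Molm13 light library the ribosomal protein median was -0.30, and that of the other TOP mRNAs was -1.25.

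Initiation and termination factors leaned to the heavy side, with 31 of 37 positive and a median of 0.61 (0.49 in Molm13, 0.74 in U937). Over all genes tested 11152 of 22658 were positive with a median of -0.01, and 1.35% were called higher. The median of protein-coding genes was 0.10, and 1.18% of them were called higher. EIF4G1, the scaffold of the cap-binding complex, passed: it was at 26.3 and 104 CPM in light and heavy Molm13 and at 16.5 and 60.4 CPM in U937 (1.93, SE 0.49, edgeR adjusted p = 0.00803). Its difference was nearly the same in both lines, 1.98 and 1.87. EIF4EBP2, an inhibitor of cap binding, went the other way without passing, from 69.0 to 30.8 CPM and from 175 to 40.3 CPM (-1.64, SE 0.55, edgeR adjusted p = 0.0658). Ribosome biogenesis factors had 49 of 52 positive and a median of 0.80; TCOF1, the nucleolar protein treacle (1.91, SE 0.49, edgeR adjusted p = 0.00866), and the helicase DDX27 (1.63, SE 0.46, edgeR adjusted p = 0.02) passed. With RLE scaling neither did (edgeR adjusted p = 0.0518 and 0.0776), and DDX27 did not in the fit of all 8 libraries (0.0734). NCL, nucleolin, was at 247 and 804 CPM and at 238 and 556 CPM without passing (1.46, SE 0.81). Of 20 aminoacyl-tRNA synthetases 19 were positive, with a median of 0.58 and none past the test.

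Very short reading frames were examined as a set after the values had been seen. The coding sequences of RPL41 and OST4 are printed whole, from the GENCODE 29 annotation on GRCh38, to show their length; start and stop codons are in capitals.
RPL41 (25 codons before the stop, chr12:56116788-56117524, plus strand, exons joined): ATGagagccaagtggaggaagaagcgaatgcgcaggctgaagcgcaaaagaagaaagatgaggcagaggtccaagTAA
OST4 (37 codons, chr2:27071349-27071462, minus strand): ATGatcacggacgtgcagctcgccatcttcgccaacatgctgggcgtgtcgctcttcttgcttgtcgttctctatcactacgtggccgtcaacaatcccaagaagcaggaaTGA
RPL41, a ribosomal protein, was at 463 and 126 CPM in light and heavy Molm13 and at 769 and 113 CPM in U937 (-2.32, SE 0.80, edgeR adjusted p = 0.077). OST4, a subunit of the oligosaccharyltransferase of the endoplasmic reticulum, was at 562 and 93.8 CPM and at 705 and 231 CPM (-2.10, SE 0.81, edgeR adjusted p = 0.13). For both genes each heavy value was below each light value. Of 22 genes with a symbol, at most 60 codons, at least 10 CPM on average and less than 50% exon overlap, 17 had a negative difference, 12 were negative in both control lines and the same number in all 4 pairs including those labelled OE. None was called, and the median was -0.69 (-1.23 in Molm13, -0.14 in U937). The pairs labelled OE gave medians of -1.11 in Molm13 and -0.50 in U937. UQCR11 (56 codons, complex III) gave -2.36, COPS9 (57 codons, signalosome) -1.99 and TOMM5 (51 codons, outer membrane import) -1.83. The set was not uniform: PIGBOS1 (54 codons) gave 1.02, ATP5MJ (58 codons) 0.81 and RPL39 (51 codons) 0.35. ENSG00000267127 (57 codons), which met the other criteria but has no symbol, gave 0.88. With all 8 libraries in the fit RPL41 passed (edgeR adjusted p = 0.0311), and so did OST4 (0.0494).

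Coding length as a whole showed no common order in the lines. Coding length here is the number of codons before the stop in the principal GENCODE 29 transcript. Among genes under 100 codons the median heavy minus light difference was -0.59 in Molm13 and 0.51 in U937. In the 2650 genes of 800 codons or more it was 0.34 in Molm13 and -0.02 in U937. Molm13 medians went up from class to class, and U937 medians were 0.55 at 100 to under 200 codons and then went down. The pairs labelled OE gave 0.29 and 0.37 under 100 codons and -0.32 and 0.07 at 800 or more. The control pair of Molm13 was thus the pair with a negative median in the class under 100 codons. In the filtered set of at most 60 codons above, each pair had a negative median. The share of genes called lower went from 3.26% under 100 codons through 2.82%, 1.52% and 0.96% to 0.72% at 800 or more, with 1.37% over all protein-coding genes and 2.30% over all genes tested. The share called higher ranged from 0.75% to 1.62% without such an order. These are medians and shares over genes, which are not replicates, and the part of the Molm13 light library in the Molm13 medians was not tested.

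**Figure D3:**
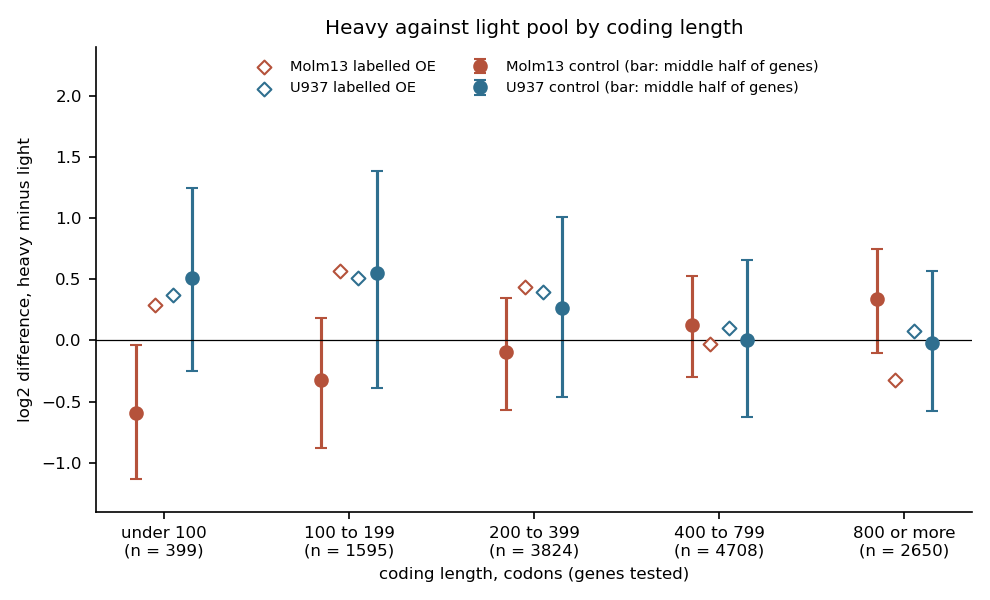
Median heavy minus light difference on the log2 scale by coding length class; circles are the control lines, with bars over the middle 50% of genes, and open diamonds the pairs labelled OE. Below 200 codons the Molm13 control median is negative (-0.59 and -0.32), while the other 3 pairs lie between 0.29 and 0.57.

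Selenoprotein mRNAs contain a TGA codon that is read as selenocysteine, and reading it is slow and inefficient. SELENOW was the 1 of 16 that passed, where 2.30% of all genes were called lower. The list's median was -0.26, with 9 negative and 7 positive, and was 0.08 without the Molm13 heavy library. The windows below show 12 bases on either side of the selenocysteine codon, which is in capitals, in a mRNA of the light side and in 2 others that differ in where the codon lies.
SELENOW (codon 13 of 87, chr19:47778810-47780746, plus strand, exons joined): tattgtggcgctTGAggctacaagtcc
GPX4 (codon 73 of 197, chr19:1105391-1105417, plus strand): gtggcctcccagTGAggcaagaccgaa
TXNRD1 (codon 498 of 499, chr12:104348401-104348427, plus strand): caggctggctgcTGAggttaagcccca
GPX4, which protects lipids from peroxidation, was at 391 and 88.9 CPM in light and heavy Molm13 and at 776 and 200 CPM in U937 (-2.05, SE 0.79, edgeR adjusted p = 0.126). Both lines differed by about the same amount, -2.13 and -1.96, and the pairs labelled OE gave -2.21 and -2.20. TXNRD1, a thioredoxin reductase, was at 47.2 and 74.1 CPM and at 60.3 and 82.1 CPM (0.55, SE 0.51). In a description made after the values were seen, the genes were split by the place of the first selenocysteine codon. Of 8 genes with the codon before the middle of the frame, 7 had a negative joint difference. The median of these 8 was -0.83 (-1.33 in Molm13, -0.53 in U937). Of the 8 with the codon after the middle, 6 had a positive joint difference. Their list median was 0.51 (0.11 in Molm13, 1.425 in U937). SELENOM, an early-codon gene, was under 1 CPM in all 4 libraries. SEPHS2 (0.53, codon 60 of 448) was the early-codon gene with a positive joint difference. The early-codon genes SELENOH (0.06) and SELENOT (0.15) were also positive in U937. SELENON has 2 such codons in the frame used, and the first, at 127 of 590, was taken. GPX4 passed in the fit of all 8 libraries (edgeR adjusted p = 0.0488).

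**Figure D4:**
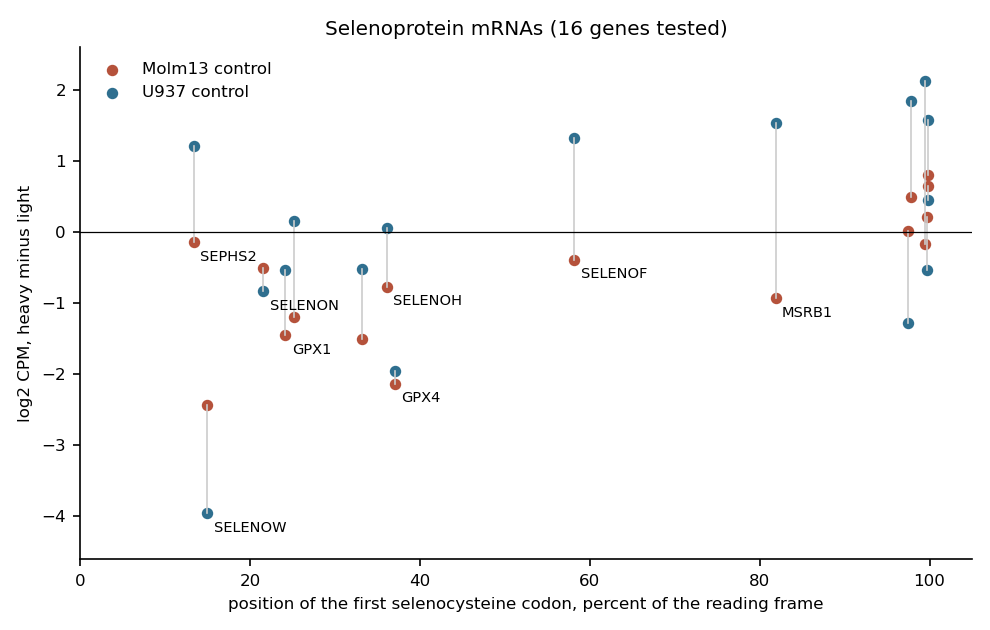
Heavy minus light difference in log2 CPM of 16 selenoprotein mRNAs against the place of the first selenocysteine codon as a percent of the reading frame; red Molm13, blue U937, joined for each gene. SELENOW (15% of the frame) and GPX4 (37%) lie lowest, and genes with the codon near the end lie mostly above 0 in U937.

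Other mRNAs with known control elements gave 1 further call. AMD1, the decarboxylase that supplies aminopropyl groups for spermidine, has an upstream frame for a short peptide through which polyamines repress it. The frame found in its 5′ leader (GENCODE 29, GRCh38, chr6:110874796-110874816, plus strand, 6 codons and the stop, 289 bases before the main start) is shown with start and stop in capitals.
AMD1 upstream frame: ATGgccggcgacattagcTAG
AMD1 was at 86.4 and 28.4 CPM in light and heavy Molm13 and at 308 and 55.7 CPM in U937 (-2.04, SE 0.62, edgeR adjusted p = 0.036). It was the 1 of 17 listed mRNAs with regulatory upstream frames that passed, where 2.30% of all genes were called lower. AMD1 did not pass with RLE scaling (edgeR adjusted p = 0.0946). The list's median was 0.18, and -0.16 without the Molm13 heavy and -0.07 without the U937 light library. ATF4, the stress factor whose upstream frames delay its translation, was at 627 and 328 CPM and at 942 and 293 CPM (-1.31, SE 0.84, edgeR adjusted p = 0.435). PPP1R15A (0.48) and DDIT3 (-0.51) were near 0 relative to their errors of 0.47 and 0.46. In the polyamine and hypusine list, AMD1 was lower and DOHH higher, and EIF5A, the protein that carries hypusine, was at 170 and 261 CPM and at 84.3 and 348 CPM (1.33, SE 0.71) without passing.

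All 6 tested mRNAs with an iron-responsive element, the hairpin bound by iron regulatory proteins when iron is scarce, were negative in both lines, with a median of -0.90, and none passed. The candidate elements of the ferritin mRNAs, with the CAGTG loop letters in capitals, are printed because both lie in the 5′ leader; each leader held 1 match.
FTH1 (chr11:61967575-61967603, minus strand): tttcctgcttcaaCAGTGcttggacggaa
FTL (chr19:48965334-48965362, plus strand): tctcttgcttcaaCAGTGtttggacggaa
FTL, the ferritin light chain, was at 6249.6 and 3049 CPM in light and heavy Molm13 and at 9949 and 1541 CPM in U937 (-1.86, SE 1.41, edgeR adjusted p = 0.53). FTH1, the heavy chain, was at 804 and 411 CPM and at 645 and 151 CPM (-1.53, SE 0.84, edgeR adjusted p = 0.334). FTH1 shares 62.4% of its exon bases with other annotated genes, so its reads cannot be assigned with certainty. Each heavy value was below each light value for both chains. TFRC, whose elements lie in the 3′ part of the mRNA, was at 113 and 96.6 CPM and at 481 and 169 CPM (-0.87, SE 0.70). SLC11A2 gave -0.71 and EPAS1 -0.92. Without the Molm13 light library, the list's median was -1.32 over then 7 tested, and FTL gave -2.46.

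Several lists of cytosolic and nuclear proteins leaned to the heavy side with few or no members past the test. All 34 proteasome subunits had a positive difference, 32 of them in both lines, with a median of 1.14 (0.67 in Molm13, 1.62 in U937); none passed. PSMB3, a subunit of the catalytic core, was at 341 and 805 CPM in light and heavy Molm13 and at 82.3 and 676 CPM in U937 (2.14, SE 0.87, edgeR adjusted p = 0.152). Both heavy values were above both light values. Without the Molm13 light library the proteasome median was 1.56. Mitochondrial ribosomal proteins (68 of 78 positive, median 0.72) and nuclear-encoded subunits of oxidative phosphorylation (69 of 77, median 0.69) had larger medians in U937 (1.15 and 1.46) than in Molm13 (0.30 and 0.11). Positive in both lines were 50 and 38 members of these lists. MRPL49 (1.46, edgeR adjusted p = 0.0828) and NDUFV1 (1.66, edgeR adjusted p = 0.216) led them among positive members by smallest p. All 16 glycolytic enzymes (median 0.76) and all 12 myeloid granule proteins (median 0.95) had a positive joint difference, 11 and 7 of them in both lines. The glycolysis median was 0.28 in Molm13 and 0.87 in U937, and the granule protein median 0.28 and 1.53. ELANE, neutrophil elastase, was at 1726 and 2327 CPM and at 426 and 2823 CPM (1.58, SE 1.16, edgeR adjusted p = 0.514); MPO gave 0.64.

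Of 47 replication-dependent histone genes, whose mRNAs end in a stem-loop in place of a poly(A) tail, 7 were higher (14.9%, against 1.35% of all genes) and none lower, with a median of 0.84 (0.21 and 1.44). Besides H1-4, H1-3 went from 5.75 to 17.97 CPM in Molm13 and from 0.716 to 4.28 CPM in U937 (2.08, SE 0.46, edgeR adjusted p = 0.00153). H2AC20 (2.10) and H1-5 (1.90) also passed, as did H4C5 (2.11), H3C2 (1.54) and H2AC14 (1.59). The abundant H4C3, at 790 and 750 CPM and at 94.6 and 372 CPM, did not (0.95, SE 0.86). With RLE scaling 3 of the 47 passed, and in the fit of all 8 libraries none did. Without the Molm13 light library the histone median was 1.83 over then 48 genes. In DNA replication, GINS4 (1.74, edgeR adjusted p = 0.046) and FEN1 (1.62, edgeR adjusted p = 0.0484) passed of 43, where 1.35% of all genes were called higher, and 38 were positive. Neither passed with RLE scaling (edgeR adjusted p = 0.103 and 0.105) or with limma voom (0.0522 and 0.0601); GINS4 shares 23.6% of its exon bases with other genes. Cytosolic chaperones had 25 of 26 positive and 1 past the test, PFDN6, which did not pass with RLE scaling (edgeR adjusted p = 0.0759) or in the fit of all 8 libraries (0.0558). None of 30 mitosis genes passed (median 0.55); CDC20 was nearest, at 1.68 (edgeR adjusted p = 0.0621).

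**Figure D5:**
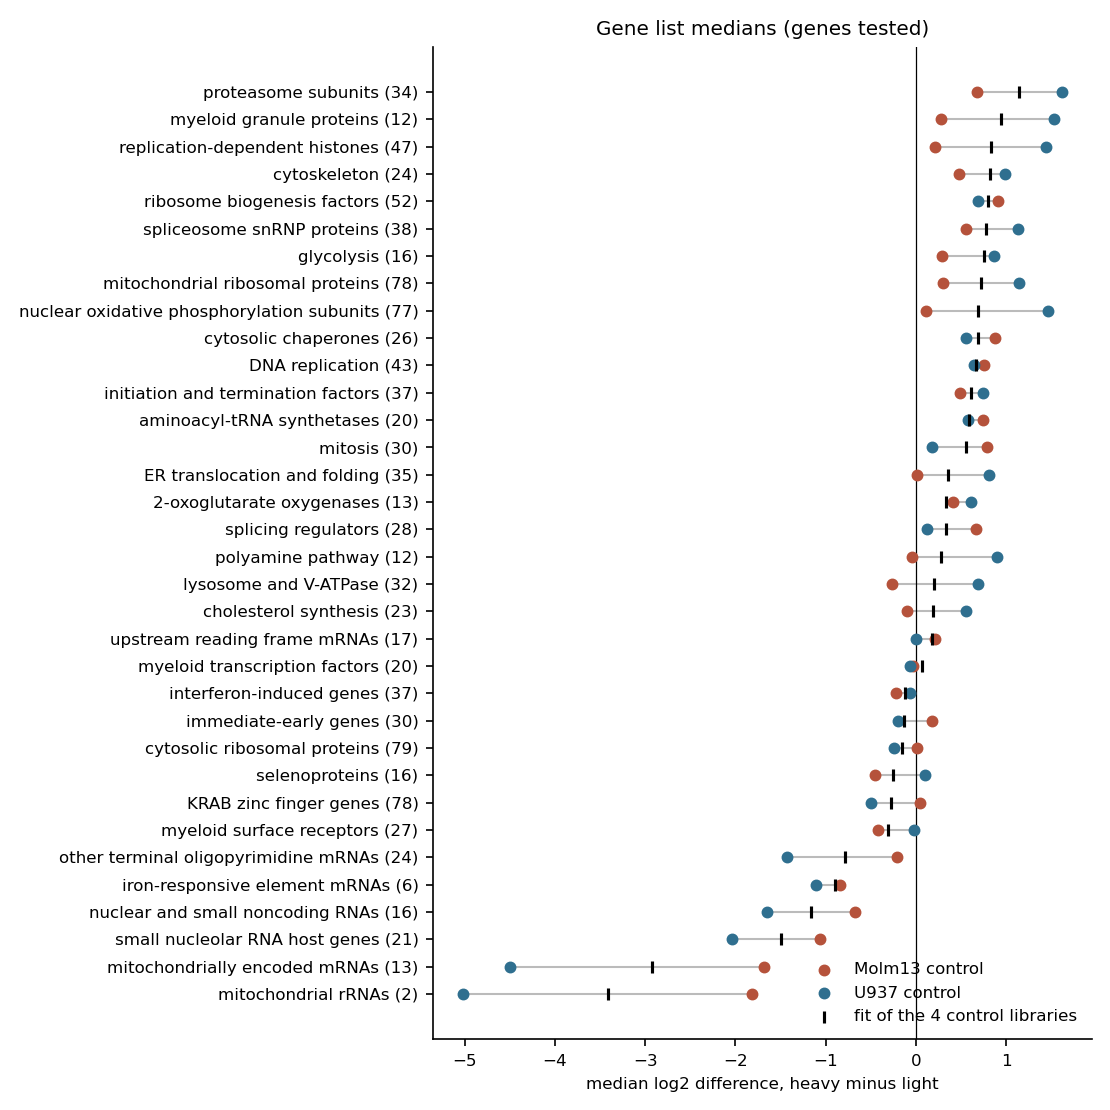
Median heavy minus light difference on the log2 scale of 34 gene lists, with the number of tested genes in brackets; red Molm13, blue U937, black bar the joint fit. Mitochondrial and noncoding RNAs lie at -1.16 or below in the joint fit, and proteasome subunits are highest at 1.14.

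Lists of myeloid regulators and receptors had no member past the test. Myeloid transcription factors had a median of 0.07 over 20 genes, which became -0.03 with upper-quartile scaling, -0.09 at a mean of at least 10 CPM, and -0.01, -0.08 and -0.12 without the Molm13 light, Molm13 heavy and U937 light library. SPI1, the factor PU.1, was at 153 and 174 CPM in Molm13 and 44.8 and 141 CPM in U937 (0.92, SE 0.63). MYC gave 0.64 (SE 0.56), MYB -0.21 (SE 0.63) and MEIS1 0.05 (SE 0.42), none past the test. Surface receptors had a median of -0.31 over 27 genes, which was 0.32 without the Molm13 light library. FCGR1A was highest among them by smallest p, at 15.1 and 42.3 CPM and at 8.35 and 17.5 CPM (1.28, SE 0.42, edgeR adjusted p = 0.0586). Immediate-early genes (-0.13), interferon-induced genes (-0.12) and KRAB zinc finger genes (-0.27) had no member past the test. The first of these medians was 0.21 and the second 0.15 without the Molm13 light library, and the first 0.33 without the U937 heavy library. Lysosome (0.20), cholesterol synthesis (0.19) and polyamine (0.28) medians were -0.18, -0.07 and -0.04 without the U937 light library, and the lysosome median was -0.16 without the U937 heavy library. Remaining lists with positive medians were cytoskeleton (0.82), spliceosome snRNP proteins (0.77), endoplasmic reticulum translocation and folding (0.36), splicing regulators (0.33) and 2-oxoglutarate oxygenases (0.34). None of their members passed.

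OGFOD1, the gene named in the OE label, was at 33.2 and 44.3 CPM in light and heavy control Molm13 and at 50.3 and 59.9 CPM in control U937 (0.33, SE 0.47, edgeR adjusted p = 0.777). Its mRNA was thus detected in both pools, and its place relative to other RNAs was not called different between them. Whether the difference between pools in control cells differs from that in cells labelled OE was tested as an interaction over all 8 libraries and 24289 genes. No gene passed (0%) with edgeR, 1431 had an unadjusted p under 0.05, the smallest adjusted p was 0.791, and DESeq2 called 4 and limma voom 0. Without the control light library of U937, 1371 genes passed that test, and without the control heavy library of U937, 2 did. The libraries labelled OE held less OGFOD1 mRNA than the control libraries, so no direction of an OGFOD1 effect is read from that term.

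All values compare 2 pools scaled to each other with no spike-in, so they give the place of an RNA relative to the others and not the share of its molecules on polysomes. The joint fit has 1 residual degree of freedom, and its spread was in effect shared by genes of like abundance (prior degrees of freedom 11015, against 23.1 with RLE scaling).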

How the data were processed

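Libraries from the light and heavy pools of control Molm13 and U937 cells were made with a Smart-seq kit, per the labels' protocols. Whether the counts keep strand is taken here as not known. The authors deposited a table of unnormalized gene-level counts with 78932 Ensembl IDs. The submitters' processing notes name cutadapt, STAR, featureCounts and GRCh38, with no version, annotation or strand option. Genes lying wholly within exons of others hold counts, so antisense, overlapping and duplicated genes are uncertain.

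The 4 control libraries (57578482 to 89373133 counts) were fitted with edgeR 4.0.16 (R 4.3.3): filterByExpr, TMM, cell line plus pool, quasi-likelihood test, Benjamini-Hochberg threshold 0.05. The biological coefficient of variation was 0.381. Levels are TMM-scaled CPM, and within-line differences are of log2 CPM with a prior count of 2; standard errors come from the F statistic. The cell line pairs the libraries by design; line differences correlated at 0.251 between the pools across genes. Leave-one-out fits used the remaining libraries of all 8 and assume that a lone library varies like the others. DESeq2 1.42.0 and limma 3.58.1 (voom), other scalings and filters were alternatives. Counts were simulated for 22658 genes with a common spread taken from the data and the same pool difference in both lines. There, 45 of 50 genes lowered 8-fold and 46 of 50 raised 8-fold were called. So were 20 of 50 lowered 4-fold, 14 of 50 raised 4-fold and 2 of 22458 unchanged genes. In the data the standard errors varied with level and the lines differed, so these shares need not carry over.

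Symbols matched 16407 of 22658 tested genes. Types, positions and coding lengths (in codons, in place of the planned protein lengths) came from GENCODE 29, which covered 19427 tested genes and need not be the authors' release. Start windows came from RefSeq. The members and the 34 gene lists were chosen with earlier results of these data known. Named genes were OGFOD1, RPS23, key list members, the 12 largest called differences per direction among protein-coding genes and the 5 largest among other genes, each having a symbol, one direction in both lines and on average 10 CPM or more, and up to 4 members per list by smallest p. Others, named after their values were seen, are the short-frame and selenoprotein genes beyond the rule, DANCR, H4C5, H3C2 and H2AC14.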

Additional observations from a re-analysis of the deposited data

Results flagged for a closer look

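Some values had opposite signs in the lines; with 1 library per line and pool none of these differences was tested. U937 minus Molm13 differences of the heavy minus light log2 values are given. Medians differed by 0.959 for lysosome and V-ATPase genes (-0.27 in Molm13, 0.69 in U937), 1.099 for genes under 100 codons (-0.59, 0.51) and 0.8703 for genes of 100 to under 200 codons (-0.32, 0.55). Genes positive in U937 alone were NDUFA1, a complex I subunit, with a difference of 2.193 (-0.80 in Molm13, 1.39 in U937), SEC61G, of the protein channel of the endoplasmic reticulum, with 2.129 (-0.68, 1.45), the ornithine decarboxylase antizyme OAZ1 with 1.994 (-0.80, 1.20), the lysosomal precursor PSAP with 1.895 (-0.81, 1.09), the actin-binding peptide TMSB4X with 1.881 (-0.97, 0.91), the signalling adaptor TYROBP with 1.672 (-0.77, 0.90) and the snRNP protein SNRPG with 1.557 (-0.52, 1.04). The transcription factor JUN went the other way, with a difference of -1.55 (0.69, -0.86), at 0.644 to 4.84 CPM. NDUFA1, SEC61G, SNRPG and TMSB4X have 70, 68, 76 and 44 codons. NDUFA1 shares 44.5% of its exon bases with other annotated genes, so its reads cannot be assigned with certainty. The part of the Molm13 light library, which held 2.49% mitochondrial counts against 23.3% in U937, was not tested.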

How the results depend on the processing

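Genes called higher and lower numbered 305 and 521. They were 37 and 145 with RLE scaling, 35 and 245 with upper-quartile scaling, 142 and 329 without mitochondrial and rRNA genes, 82 and 277 at a mean of at least 10 CPM, 166 and 344 with limma voom and 50 and 212 with all 8 libraries in the fit; the cause was not tested. Of the 826 called genes, 182 were also called with RLE, 280 with upper-quartile scaling, 541 with DESeq2 (300 and 451 called), 487 with limma voom and 230 with all 8 libraries. Library totals gave 353 and 479, and no filter 213 and 367. Without the replicate block (cell line), 0 and 0 genes passed, 2382 had an unadjusted p under 0.05 and the smallest adjusted p was 0.417. Leaving out 1 library gave 0 to 2461 higher and 0 to 1568 lower genes. The interaction, with 0 genes called, gave 74 with no filter and 4 with DESeq2, and 0 to 1371 with 1 library left out. Depth limits rare genes: of 6883 genes under 1 CPM, 75 were called, with a median standard error of 0.96. No gene named changed direction while called.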
